A study of Caenorhabditis elegans with 2 samples.

Results

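The promoters of the 78 genes named for proteins of the cytosolic ribosome, rpl (large subunit) and rps (small subunit), were examined for peaks. The peaks were those of the tagged protein Y75B8A.6, profiled as a transcription factor per the labels. The genes were defined by name, as protein-coding genes whose name is rpl or rps followed by a number. Whether each product is part of the mature ribosome was not checked. The set was chosen with earlier results of these data known and is 78 of the 19973 protein-coding genes in the annotation. By name, 47 of the 78 genes are of the large and 31 of the small subunit. The promoter of a gene was taken as the 1000 bp before and the 300 bp after each of its annotated protein-coding transcript starts. A gene was called bound when the summit of a peak, its highest point, lay in that window. The word bound refers to this position and says nothing of regulation.

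The peaks came from chromatin immunoprecipitation sequencing (ChIP-seq), which locates DNA that was crosslinked to a protein. Whole Caenorhabditis elegans of strain RW12275 were used, in which CRISPR had added a TY1, EGFP and 3xFLAG tag to the chromosome III gene Y75B8A.6, and chromatin was precipitated through the GFP part of the tag. Both libraries were biological replicates of L4 larvae at 48 h, from animals synchronised by bleaching and starvation in the L1 stage, so they form 1 group with no second condition. All animals carried the tagged allele, no library of untagged animals was analysed here, and signal that strongly transcribed genes can give in ChIP-seq of any protein was therefore not separated from signal of Y75B8A.6. Because whole animals were used, a summit present in a few tissues and one present in all cannot be told apart.

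Each ribosomal subunit is built from ribosomal RNA and a set of ribosomal proteins, which are needed in near equal numbers and are among the most strongly transcribed genes of growing animals. The large subunit joins amino acids, and the small subunit holds the mRNA and reads its codons. Introns of ribosomal protein genes often hold small nucleolar RNA (snoRNA) genes, whose products guide chemical changes of ribosomal RNA.

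In the list of reproducible peaks from both libraries, 17 of the 78 genes (21.8%) were bound, against 2.32% of all protein-coding genes (463 of 19973). The strongest of all peaks in this list lay upstream of rpl-3. The summit with 50 bases on each side is shown for 8 of the 17 genes, because a pair of short words recurs in them. Capitals mark the 6-base words TACGGT and GAGTGT or their reverse complements ACCGTA and ACACTC. The sequences are from the RefSeq genome of WBcel235 (the same assembly as ce11), each is read 5′ to 3′ in the direction of the ribosomal protein gene, and the eighth, from rpl-35, is shown as a strong summit with neither word.
rpl-3 (chrIII:3867515-3867615, plus strand): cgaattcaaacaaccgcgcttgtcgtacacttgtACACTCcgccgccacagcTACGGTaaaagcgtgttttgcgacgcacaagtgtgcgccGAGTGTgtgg
rpl-20 (chrIV:4750051-4750151, minus strand): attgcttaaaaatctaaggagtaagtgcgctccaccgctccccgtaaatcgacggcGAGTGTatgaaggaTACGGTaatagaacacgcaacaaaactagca
rpl-15 (chrIV:654865-654965, minus strand): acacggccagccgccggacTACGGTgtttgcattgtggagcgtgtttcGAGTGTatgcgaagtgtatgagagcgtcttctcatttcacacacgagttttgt
rps-1 (chrIII:4475607-4475707, plus strand): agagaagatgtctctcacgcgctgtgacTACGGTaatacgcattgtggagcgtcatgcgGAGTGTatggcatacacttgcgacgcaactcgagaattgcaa
rpl-11.2 (chrX:2242940-2243040, minus strand): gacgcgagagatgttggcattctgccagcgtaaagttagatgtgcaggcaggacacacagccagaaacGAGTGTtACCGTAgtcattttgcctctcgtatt
rpl-22 (chrII:5055310-5055410, plus strand): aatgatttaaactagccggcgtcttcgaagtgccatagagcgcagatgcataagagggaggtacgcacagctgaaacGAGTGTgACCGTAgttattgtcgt
rps-23 (chrIV:12391260-12391360, minus strand): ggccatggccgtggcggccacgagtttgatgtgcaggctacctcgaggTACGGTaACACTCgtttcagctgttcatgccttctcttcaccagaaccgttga
rpl-35 (chrIII:7854630-7854730, plus strand): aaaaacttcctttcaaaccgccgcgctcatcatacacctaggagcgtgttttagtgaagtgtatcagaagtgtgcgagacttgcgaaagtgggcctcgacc

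Both words stood within these 50 bases on either side of the summit in 7 of the 17 bound genes (41.2%), the first 7 shown. They were picked after the sequences were seen, as the most frequent of 2080 6-base words at these same summits, so their count there is a description with no test. Each word alone was found at 8 of the 17 summits: rps-19 held only GAGTGT, and rps-20 only TACGGT. In rpl-11.2, rpl-22 and rps-23 the words faced each other with 1 base between them. The GC content of the 17 windows had a median of 49.5%, against 47.5% over all summits of the list, and the sets compared below were not matched for it.

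Among summits that took no part in choosing the words, both were rarer. At the other promoter summits of the list, both words occurred in 4 of 368 (1.09%), TACGGT in 28 (7.61%) and GAGTGT in 19 (5.16%). The highest candidate summits were also searched at the 58 ribosomal protein genes that were not bound but had some candidate peak in their window. Each word was found at those of 7 genes (12.1%), counting rps-10 and rpl-24.1, which share 1 summit, separately. Both words were found at 4 of the 55 distinct summits of the 58 genes (7.27%), which belong to rpl-1, rps-29, rpl-38 and the pair rps-10 and rpl-24.1. At the highest candidate summits of other protein-coding genes, both were found in 21 of 14048 (0.149%). Across whole promoter windows, TACGGT was found in 52.9% of bound and 50.8% of unbound ribosomal protein genes and in 30.6% of all genes. GAGTGT was found there in 70.6%, 41.0% and 33.6%. The windows of bound genes include the 17 summits from which the words were picked, and 8 of these held each word. The bound shares were therefore partly set by that choice and are no test. These matches describe the letters present and identify no binding site.

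Other short motifs were rare at the summits. The motifs searched on both strands were the TATA box word TATAAA, the run TTTTTTT, the E-box word CACGTG, the GC box word GGGCGG, the splice acceptor word TTTCAG, the repeat GAGAGAG, the tRNA B box word GGTTCGA, the word CTGCGTC, the word TTCGCGC plus the word TGGCTCA. Of these, TTTCAG was found at 2 of the 17 summits (11.8%) and at 84 summits of the whole list (9.0%). The other motifs were found at 0 of the 17. Their shares over the whole list lay between 0.965% for TGGCTCA and 9.75% for GGTTCGA.

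Of the large subunit genes, 10 of 47 (21.3%) were bound, and of the small subunit genes 7 of 31 (22.6%). Peak signals are values of the authors' peak caller on a scale that is not stated. Replicate 1 and replicate 2 have separate ranked lists, whose medians over all genes were 9.88 and 8.31. Differences between replicates given below were not adjusted for this or for depth, and were not tested. Each replicate value is the highest in the promoter window of that replicate, and summit positions were not matched between replicates. Signals of the bound large subunit genes ran from 46.6 to 302.1, with a median of 120.5, and those of the small subunit genes from 52.8 to 122.7, with a median of 93.1. The ranges overlapped. Over all 17 summits the median signal was 98.3, against 61.7 for the whole list, and 13 of the 17 lay above that list median. Of the 10, 25, 50 and 100 strongest peaks of this list, 1, 3, 7 and 9 were at ribosomal protein genes. In the ranked list of both libraries, which also holds peaks outside the thresholded list, the peak of rpl-3 was at rank 14, that of rpl-20 at rank 41 and that of rpl-15 at rank 43.

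**Figure D1:**
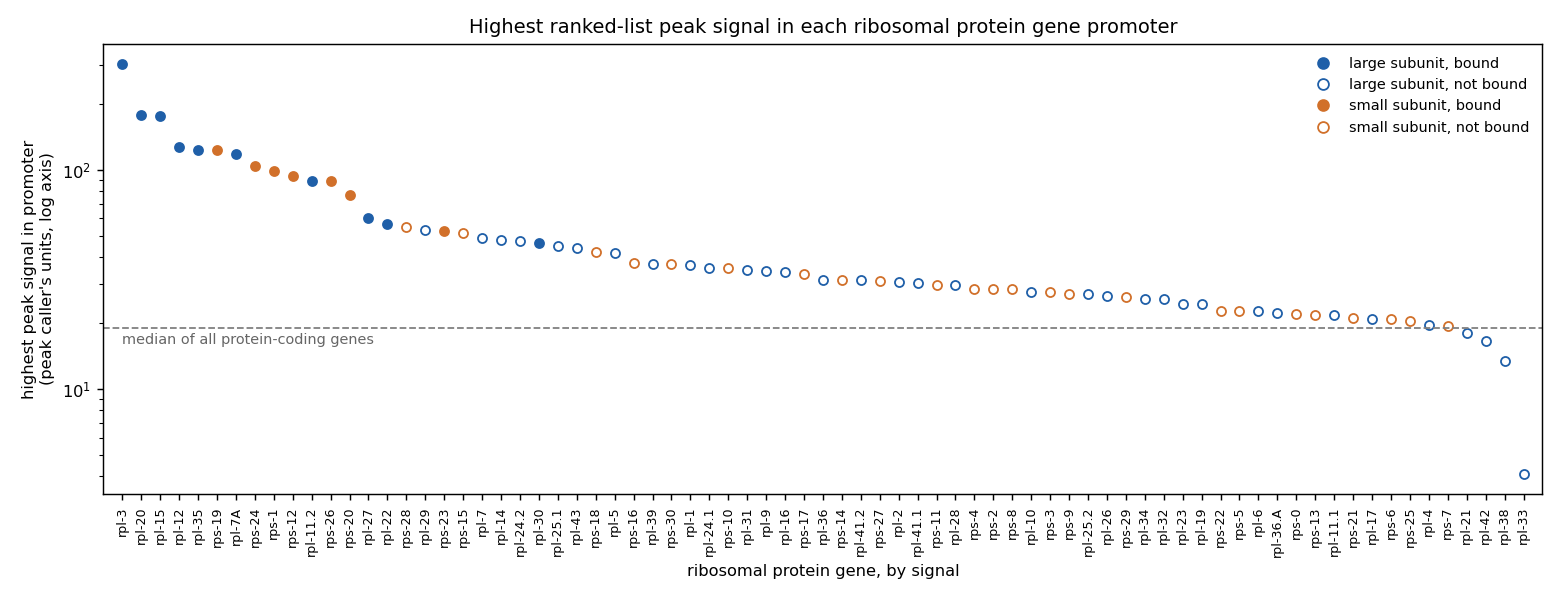
Highest peak signal in the promoter of each ribosomal protein gene with a candidate peak in the ranked list from both libraries (vertical axis, the peak caller's units, log scale), ordered by signal, with colours for the subunit, filled symbols for bound genes and a dashed line at the median of all protein-coding genes, 18.9. The 17 bound genes run from 46.6 to 302.1 and the unbound genes from 4.12 to 54.9, so the groups overlap in a narrow range.

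Among the large subunit genes, rpl-3, whose product reaches the peptidyl transferase centre in yeast ribosomes, had the highest value. Its peak (III:3867489-3867642) had a signal of 302.1, and its highest signals in the separate ranked lists were 147.2 in replicate 1 and 147.5 in replicate 2. The summit lay 289 bp upstream of the rpl-3 start, with no other protein-coding window over it. The 2 replicates gave almost the same value for this gene.

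The next large subunit genes were rpl-20 and rpl-15. The peak of rpl-20 (IV:4750023-4750140) had a signal of 178.5, with 89.6 in replicate 1 and 87.1 in replicate 2, 323 bp upstream of the start. The peak of rpl-15 (IV:654787-655042) had 176.1, with 93.4 and 82.7, 339 bp upstream. These were the peaks at ranks 11 and 12 of the list, and both replicates were again close for each gene.

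For rpl-12, whose product forms the base of the stalk where translation factors dock, the peak (IV:13240639-13240720) had a signal of 126.9 and a summit 16 bp upstream of the start. Its replicates differed more than those of any other of the 17 genes, with 85.6 in replicate 1 and 41.6 in replicate 2. At rpl-35, whose product lies at the exit of the peptide tunnel, the peak (III:7854552-7854807) had 122.7, with 70.5 and 58.1, 454 bp upstream. The order of the replicates turned at rpl-7A (IV:4390553-4390808), where a signal of 118.2 went with 46.1 in replicate 1 and 70.0 in replicate 2, 91 bp upstream.

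The remaining 4 large subunit genes were weaker. At rpl-11.2, whose product binds the smallest ribosomal RNA of the large subunit, the peak (X:2242862-2243117) had 88.9, with 41.0 and 49.2, 372 bp upstream. At rpl-27 (I:1834862-1835117) it had 60.5, with 29.5 and 33.1, and the summit lay 107 bp downstream of the start, in coding sequence. The replicates were close to each other at both, as they were at the next gene. At rpl-22 (II:5055232-5055487) it had 56.8, with 30.7 and 31.0, 256 bp upstream. The last, rpl-30, whose product in yeast limits the splicing of its own transcript (I:10435226-10435481), had 46.6, with 22.1 and 20.03, and its summit was 900 bp upstream in an intron of pab-1. These weaker peaks had replicate values within 10 units of each other.

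The small subunit genes formed a narrower group. The highest was rps-19, a gene mutated in Diamond-Blackfan anaemia in humans, with a signal of 122.7 (I:9625939-9626194), 57.4 in replicate 1 and 65.3 in replicate 2, 271 bp upstream. It was followed by rps-24, another gene mutated in that disease (IV:385438-385693), with 104.0, 55.7 and 46.1, 321 bp upstream. At rps-1 (III:4475529-4475784) the signal was 98.3, with 40.04 and 49.5, 261 bp upstream, and the summit also lay in exons of the noncoding genes F56F3.10 and F56F3.11. Replicate 1 was higher for rps-24, and replicate 2 for rps-19 and rps-1.

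Further down were rps-12, rps-26 and rps-20. The peak of rps-12 (III:5679024-5679279) had 93.1, with 48.4 and 36.4, 146 bp upstream. That of rps-26 (I:14759380-14759635), whose product lines the exit of the mRNA channel, had 88.6, with 58.4 and 40.6, 422 bp upstream. That of rps-20 (I:14469221-14469476) had 76.4, with 40.9 and 33.3, 246 bp upstream. All 3 were higher in replicate 1. The lowest, rps-23, whose product reaches the decoding centre, had 52.8 (IV:12391182-12391437), with 32.8 and 21.5, 257 bp upstream.

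**Figure D2:**
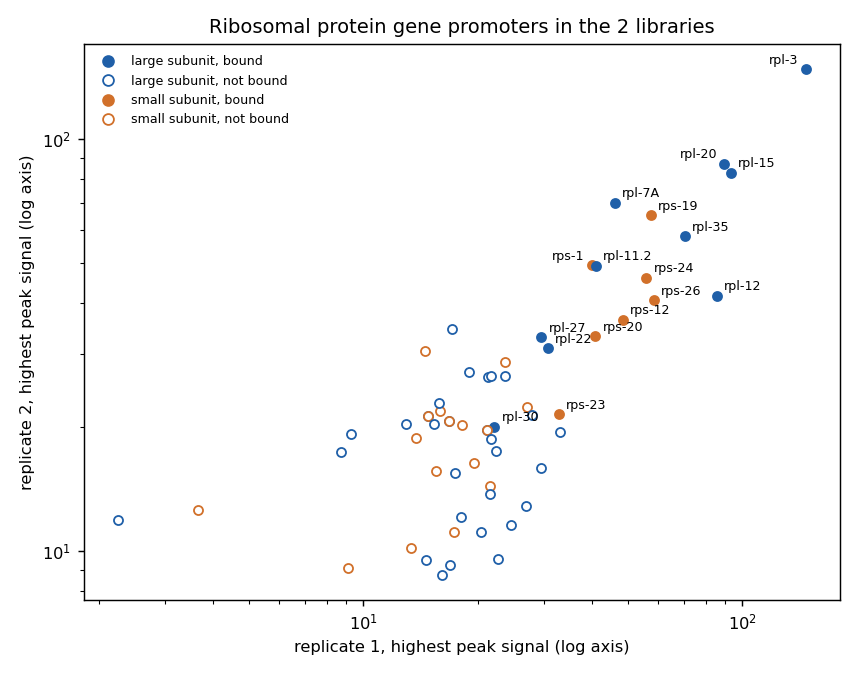
Highest signal in the promoter of each ribosomal protein gene with a candidate peak in both replicate lists, for replicate 1 (horizontal axis) and replicate 2 (vertical axis), in the peak caller's units on log scales, with colours for the subunit and names beside the filled symbols of bound genes. The bound genes run from about 20 to 147 in both replicates, with rpl-30 and rps-23 lying among the open symbols of the unbound genes.

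Across genes, the values of the replicates went together among the bound genes (Spearman's rho 0.794, Pearson's r 0.890, n = 17) and hardly among the unbound genes with a candidate peak in both lists (0.157 and 0.182, n = 45). Over all protein-coding genes with both values they were 0.370 and 0.631 (n = 8716). These are correlations over genes, which share the libraries and 1 input, and the bound genes were called from these same signals, so the values describe the lists and carry no test.

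The lists called from single libraries were shorter, and fewer of the genes were bound in them. In the list of replicate 1, 13 of the genes were bound (0.886% of all genes), and in that of replicate 2, 11 (0.946%). In the conservative list of both libraries there were 15 (1.97%), without rps-23 and rpl-30. Of the 17 genes, 11 were bound in all 4 lists, namely rpl-3, rpl-7A, rpl-11.2, rpl-12, rpl-15, rpl-20, rpl-35, rps-1, rps-12, rps-19 and rps-24. The genes rps-26 and rps-20 were missed only in replicate 2, and rpl-22, rpl-27, rps-23 and rpl-30 in both single lists. No ribosomal protein gene was bound only outside the main list. With replicate 2 alone the count of small subunit genes was 4 instead of 7. Of the 17 peaks, 11 were overlapped by thresholded peaks of both replicates, against 158 peaks of the whole list (16.9%).

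Other definitions of the promoter gave between 11 and 20 bound genes. Windows of 500 bp upstream and 100 bp downstream held 15 (1.48% of all genes), and windows of 2000 bp and 500 bp held 20 (3.41%), which added rpl-14, rpl-39 and rps-13. Counting only peaks at or above the median signal of the list left 13 (1.34%), and giving each summit only to the gene with the nearest start left 11 (1.82%).

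The threshold fell close to several genes. Peaks entered the list by a score that reflects the irreproducible discovery rate (IDR), which is low where paired lists rank a peak alike, and the lowest score in the list was 830. The gene just inside was rpl-30, with a score of 838, and the gene just outside was rpl-14, with 823 and a signal of 47.8. The other unbound genes of highest signal were rps-28 with 54.9 and a score of 627, rpl-29 with 52.9 and 748, rps-15 with 51.7 and 606, and rpl-7 with 48.9 and 685. All 4 had signals above the 46.6 of rpl-30, but lower scores. At the other end rpl-33 had 4.12, rpl-38 13.4 and rpl-42 16.6, and rpl-13, rpl-18 and rpl-37 had no candidate peak in this list. In the ranked list behind the conservative list, rpl-37 had a signal of 41.2.

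Unbound genes stood above the typical gene as well. In the ranked list of both libraries the median highest signal was 31.4 for the 78 genes and 18.9 for all genes. In replicate 1 it was 19.6 against 9.88, and in replicate 2 19.4 against 8.31. A gene without a candidate peak was ranked lowest, which concerned 3, 7 and 11 of the 78 genes in these lists and 22.1%, 37.3% and 41.9% of all genes. Ranked among all protein-coding genes, the 78 genes had median percentiles of 84.97, 85.4 and 91.5, and the 61 unbound genes 78.8, 77.5 and 81.1. Of the 61 unbound genes, 54 were above the median of all genes in the list of both libraries, and 49 in each replicate.

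The upper 10% of genes by this signal in both replicates at once held 22 of the 78 genes (4.03% of all genes). All 17 bound genes were among them, which their calls largely set, and the other 5 were rpl-14, rpl-29, rpl-31, rps-16 and rps-28. The values of rpl-31 were 27.9 in replicate 1 and 21.4 in replicate 2, and those of rps-16 were 27.1 and 22.3. By subunit, the median percentiles were 88.9 for the large and 77.2 for the small subunit in replicate 1, but 91.3 and 91.9 in replicate 2, so the order of the subunits was not kept between replicates.

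**Figure D3:**
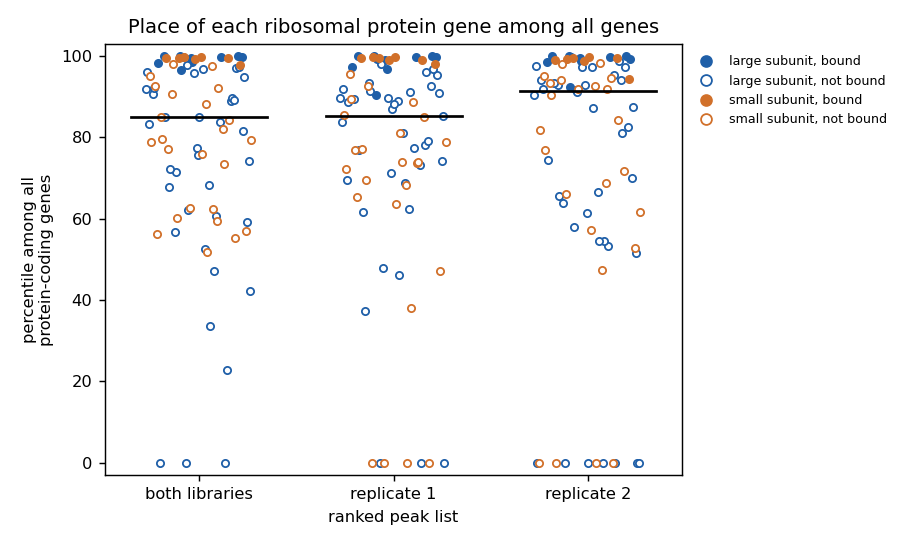
Percentile of each ribosomal protein gene among all protein-coding genes by highest signal in the promoter (vertical axis), in the ranked list of both libraries and of each replicate, with colours for the subunit, filled symbols for bound genes, a bar at the median of the 78 genes and genes without a candidate peak drawn at 0. The bars lie at 84.97, 85.4 and 91.5. The unbound genes spread over each column, with 54, 49 and 49 of the 61 above the median of all genes.

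Of 4 pairs of genes whose names differ only in the digit after a point, 1 member of 1 pair was bound. While rpl-11.2 was bound at 88.9, its paralog rpl-11.1 had a highest signal of 21.7, and 16.1 and 8.76 in the replicates. The pair rpl-24.2 and rpl-24.1 had 47.5 and 35.7, with 21.3 and 14.8 in replicate 1 and 26.4 and 21.2 in replicate 2. The pair rpl-25.1 and rpl-25.2 had 45.0 and 27.1, but the order turned in replicate 1, with 19.03 and 20.4, against 27.2 and 11.1 in replicate 2. The genes rpl-41.1 and rpl-41.2 had nearly equal values of 30.6 and 31.4, with no candidate peak in replicate 2 for either. Within each of these pairs the difference was not tested.

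Summits of the bound genes lay at a narrow distance from the annotated starts, and the sites where transcription begins were not measured here. Of the 17, 16 were upstream, and the median position was 271 bp upstream, with quartiles of 339 and 246 bp. Over all 463 bound genes the median was 287 bp upstream, with quartiles of 565 and 87.5 bp, and 85.3% were upstream. The highest candidate summits of the 58 unbound genes were at a median of 235.5 bp upstream, with quartiles of 341 bp upstream and 15.75 bp downstream. Among the 17, the farthest from their median position were rpl-12 at 16 bp, rpl-30 at 900 bp and rpl-27 inside its gene. Of the 17 summits, 14 lay outside annotated genes, where genes of piRNAs (a class of small RNAs) were not considered.

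**Figure D4:**
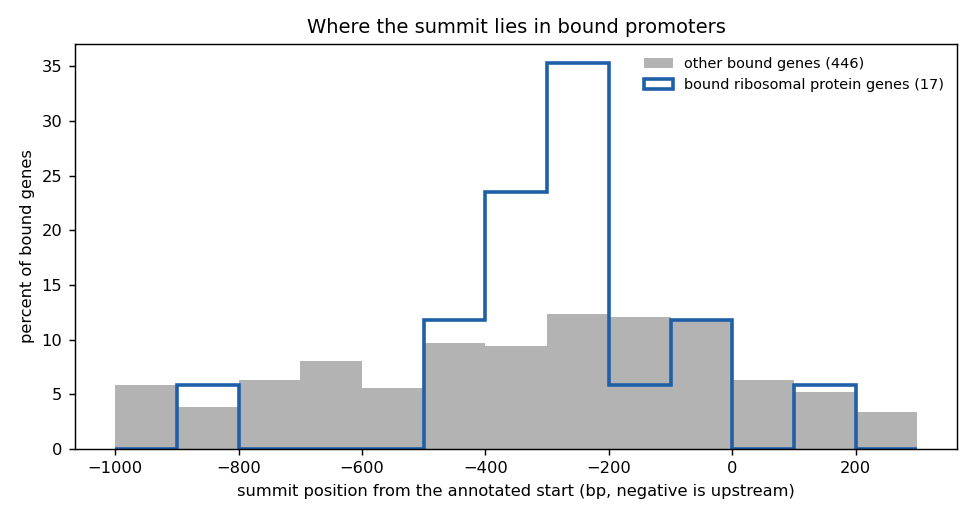
Histogram of the summit position relative to the annotated start (horizontal axis, bp, negative upstream) as the percent of genes in each step (vertical axis), for the 17 bound ribosomal protein genes (blue outline) and the other bound genes (grey bars). The blue outline is highest around 271 bp upstream, the median of these genes, and the grey distribution is wider.

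Most of the summits lay between the starts of genes transcribed in opposite directions. Of the 17, 13 (76.5%) were also in the window of another protein-coding gene, against 187 of all 463 bound genes (40.4%). In 12 of the 13 the other gene ran the opposite way from a start upstream, at 254 to 1016 bp from the ribosomal protein start (median 451 bp). The 1016 bp was that of rpl-30, measured to a pab-1 start inside that gene, as the summit lay in a pab-1 intron. Such a divergent start within 1000 bp was a general trait of these genes: it was found for 57.4% of unbound ribosomal protein genes, 70.6% of bound ones and 18.3% of all genes. Of ribosomal protein genes with such a neighbour 25.5% were bound, and of those without 16.1%, and the same shares over all genes were 3.56% and 2.04%. The summit was nearer the ribosomal protein start in 6 of the 12 pairs and nearer the other start in 6, so these summits cannot be given to either gene.

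The partner genes had varied functions. The pair of rpl-12 was lin-54, a DNA-binding subunit of the DREAM complex, 377 bp from the summit. The pair of rpl-22 was ify-1, the securin that restrains separase, at 181 bp, and that of rpl-30 was pab-1, a poly(A)-binding protein, at 116 bp. Beside rps-1 was ifet-1, a repressor of translation in the germ line, at 507 bp, and beside rps-20 was ekl-4 at 151 bp. The others were Y17G9B.5 at 139 bp from the summit of rpl-20, K11H12.8 at 475 bp from that of rpl-15, set-21 at 163 bp (rpl-7A), hsr-9 at 174 bp (rps-19), ska-3 at 147 bp (rps-12), tmem-107 at 35 bp (rps-26) and dpm-3 at 277 bp (rps-23). For rpl-27 both partners, egl-30 at 671 bp and C53H9.4 at 790 bp, lay on its own strand. The summits of rpl-3, rpl-35, rpl-11.2 and rps-24 were in no other window.

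**Figure D5:**
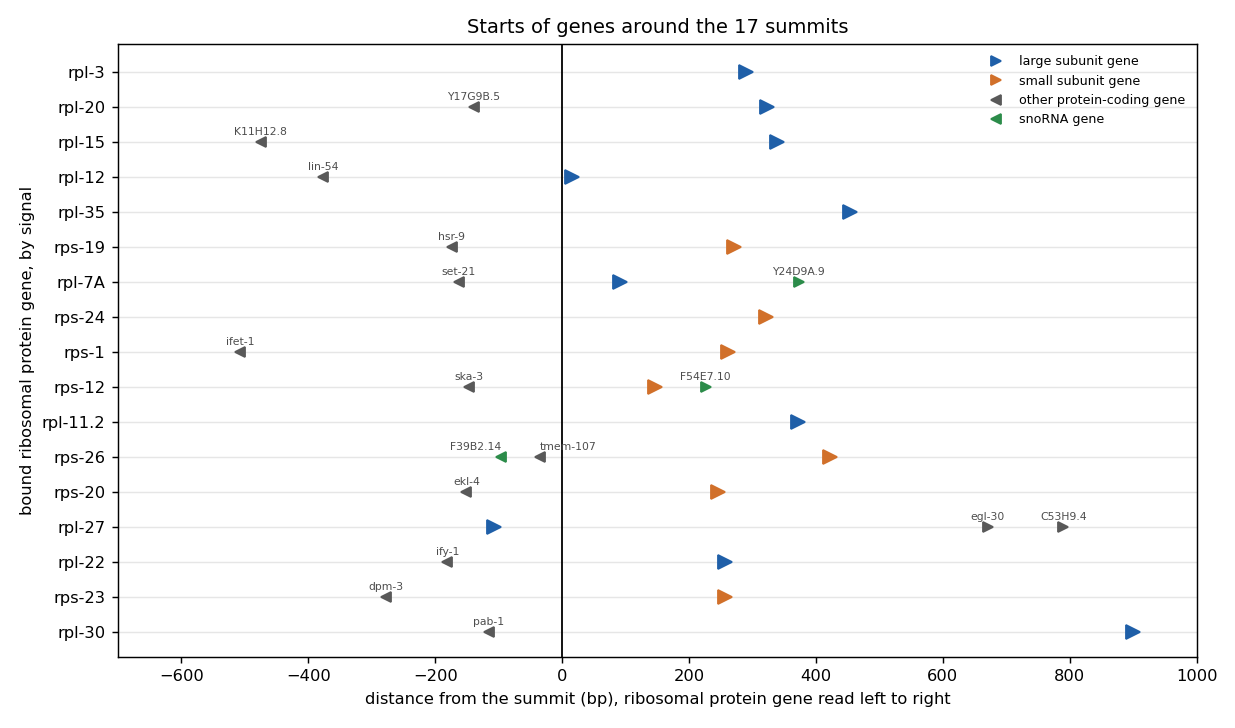
Starts of genes around each of the 17 summits, drawn by their distance from the summit (horizontal axis, bp, summit at 0), with each ribosomal protein gene turned to read left to right and arrowheads for direction. In 12 rows another protein-coding gene starts on the left and points away, and snoRNA starts are near the summits of rpl-7A, rps-12 and rps-26.

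A snoRNA start lay within 500 bp of 3 of the 17 summits (17.6%), against 21 of 385 promoter summits (5.45%). At rps-12 the snoRNA F54E7.10, in an intron of rps-12, started 226 bp away, and at rpl-7A the snoRNA Y24D9A.9, in an intron of that gene, 373 bp away. At rps-26 it was F39B2.14 in the partner gene tmem-107, 96 bp away. No tRNA or snRNA start was within 500 bp of the 17 summits, while 44 of the 385 promoter summits had a tRNA. Within 200 bp the count of snoRNA starts fell to 1 summit and within 1000 bp it was 5.

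The 78 genes hold 19 snoRNA genes, all within introns of 13 of them and on the strand of the host. Of these 19, 4 (21.1%) had a main-list summit within 500 bp of their start, near the background of 15.9% for all 346 snoRNA genes. In rps-13 and rps-4, which were not bound at the promoter, summits lay near the snoRNA. At C16A3.11 in rps-13 (III:6374525-6374780) the signal was 14.04, 105 bp from the snoRNA start, and a stronger summit of 43.6 (III:6374312-6374567) lay 108 bp from it, inside the snoRNA. At Y43B11AR.7 in rps-4 (IV:7083478-7083733) the signal was 55.3 at 324 bp from the snoRNA start, and that summit lay beyond the end of rps-4, in coding sequence and in the promoter window of Y43B11AR.3. In rpl-14 summits with signals of 43.2 and 2.57 lay in the gene body, 406 and 616 bp downstream of the start, outside the window.

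In 3 pairs of ribosomal protein genes both members had the same highest candidate summit, and none of these summits passed the threshold. The highest candidate summit of rpl-39 was also that of rps-30, with a signal of 37.2 at V:7776215-7776470. That of rps-10 and rpl-24.1 had 35.7 at I:4584712-4584967, and that of rps-14 and rpl-36 had 31.4 at III:7179233-7179488. In all 3 pairs the genes ran in opposite directions. By chromosome, the bound genes were 5 of 23 on I, 1 of 10 on II, 4 of 18 on III, 6 of 17 on IV, 0 of 8 on V and 1 of 2 on X. Over all protein-coding genes they were 96 of 2878 on I, 74 of 3449 on II, 88 of 2640 on III, 83 of 3281 on IV, 63 of 4994 on V and 59 of 2731 on X.

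Among related genes outside the naming rule the bound shares are to be read against the 2.32% of all protein-coding genes. Of 6 further proteins of the cytosolic ribosome, 0 were bound, with highest signals of 23.4 for rla-0, 43.7 for rla-1, 32.9 for rla-2, 24.4 for ubl-1, 37.7 for ubq-2 and 32.0 for rack-1. Their median percentile was 86.7. Of 70 mitochondrial ribosomal protein genes, which serve a separate ribosome in mitochondria, 3 (4.29%) were bound, namely mrps-21 with 82.2, mrpl-23 with 71.3 and mrpl-32 with 50.4, and their summits were 462 to 983 bp upstream. The median percentile of these 70 genes was 65.2, beside 84.97 for the cytosolic genes. Of 29 ribosome assembly factors found in the annotation, 1 (3.45%) was bound (pro-1, 59.6), with a median percentile of 78.8, and of 10 subunits of RNA polymerases I and III, 1 (rpc-2, 50.7), with a median percentile of 88.5.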

How the data were processed

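The files were peak lists of the authors from 2 replicate libraries; aligner, peak caller and read totals are not stated there, so the depth is unknown. Per the descriptions deposited with them, the lists derive from the alignments and 1 input shared by both libraries, on ce11, from chromatin sonicated to 200 to 800 bp. The signal and the score (scaled IDR, 0 to 1000) of each peak are as deposited by the authors, as are the summit offset and the −log10 of the global IDR, which was not used. The optimal list of both libraries was the main list, and the highest signal in each window was also taken from the ranked lists. Genes came from Ensembl release 115 of WBcel235. A snoRNA was counted as near within 500 bp. No test was made, since there is 1 group; counts stand beside those over all protein-coding genes. The window search was checked on simulated summits. The members and lists were chosen with earlier results of these data known. Named were all bound genes, the 5 highest and 3 lowest unbound genes, and genes sharing a summit or bound in the further lists; genes that differ by a suffix, genes in the upper 10% in both replicates and genes holding the 6-base words were named after their values were seen. Python 3.11.15, numpy 2.4.6, scipy 1.17.1 and matplotlib 3.10.9 were used.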

Additional observations from a re-analysis of the deposited data

How the results depend on the processing

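The 17 bound genes, of which 10 were of the large and 7 of the small subunit, became 11 in all and 4 of the small subunit when each summit went to the nearest start only, where by construction 0 summits are shared. The list of either replicate alone gave 11 to 13 bound genes, 7 to 7 of the large and 4 to 6 of the small subunit, 7 to 9 with a shared summit and 2 to 3 with a snoRNA near. A snoRNA start within 200 bp was found for 1 bound gene and within 1000 bp for 5. The median highest signal was 27.55 with the narrow and 37.1 with the wide window for the ribosomal protein genes, and 10.25 and 23.5 for all genes, as a wider window holds more peaks. The median percentile of the ribosomal protein genes was 85.35 to 91.47 with 1 replicate. The other alternatives stayed within 1.5 times the reported count. No paired analysis was possible because there is 1 group. The read depth behind the lists is unknown.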

Other observations

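Outside the ribosomal protein genes, 4 promoter summits of the main list held both 6-base words within 50 bases on either side. They lay at eel-1, which encodes a ubiquitin ligase, with a signal of 154.2, at T26A8.4 and pdtf-1 with 81.1, at ile-2 and trap-2 with 69.5, and at bath-42 and prp-8, a core protein of the spliceosome, with 65.6. In the first 3 the words were separated by 1 base, as in rpl-11.2, rpl-22 and rps-23, and none of the 4 had a small RNA gene within 500 bp. At the summits of the whole list GAGTGT was found in 56 windows (6.00%) and TACGGT in 48 (5.14%). In windows of the same length 300 bp to the right of these summits each was found in 24 (2.57%). The whole list includes the 17 summits from which the words were picked, and 8 of those held each word, so this comparison is no test.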
